A study of Mus musculus with 32 samples.

Results

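Immunity-related GTPases (IRGs) were followed in footprints of neural stem cells (NSCs) exposed to IFN-β. The 7 genes were chosen by name, as Irgm1, Irgm2, Igtp, Iigp1, Ifi47, Tgtp1 and Tgtp2, and all 7 were found by their Ensembl identifiers among the 23035 genes of the footprint tables. The question was which of them had reached their full footprint level by 2 h and which were still higher at 14 h.

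IRGs are large GTPases of the dynamin superfamily that mouse cells make in response to interferons. They are best known for attacking the vacuoles in which Toxoplasma gondii and some bacteria live inside a cell. The family splits by the first nucleotide-binding motif. The GMS proteins, Irgm1, Irgm2 and Igtp (also called Irgm3), have a methionine there, sit on the cell's own membranes and hold the other IRGs in their inactive, GDP-bound form. The GKS proteins, Iigp1 (Irga6), Ifi47 (Irgd) and the products of Tgtp1 and Tgtp2 (Irgb6), have a lysine there and are the effectors that load onto the vacuole. In the text below the first are called regulators and the second effectors.

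NSCs were taken from the ventricular-subventricular zone of C57BL/6 mice aged 8 to 12 weeks, grown ex vivo in EGF and FGF, and given IFN-β or vehicle (bovine serum albumin in PBS) for 2 h or for 14 h. Ribosomes were stalled with cycloheximide, and each lysate gave a library of ribosome footprints, counted in the coding sequence, and one of total RNA, counted in the gene body. Each of the 4 groups held 4 cultures. The 2 h cultures carry the numbers 2, 3, 5 and 6, and those of 14 h run from 1 to 4. Replicates came from different mice or from NSC cultures of different mice. The labels do not say whether the numbers 2 and 3, which occur at both times, mark the same cultures, so time and set of cultures cannot be told apart in a comparison of the times.

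Footprint libraries held 2956297 to 10505108 counts and total RNA libraries 1370008 to 7877753. All 10 NSC markers were measured. At 2 h their summed footprints were 14242 to 17193 CPM in vehicle libraries and 14043 to 17971 CPM in IFN-β libraries. At 14 h the sums were 11142 to 13182 and 10564 to 12186 CPM in the same order, lower in every 14 h library than in any of 2 h, where CPM are counts scaled to a common library size with TMM and given per 1e6 counts. Of 9 microglial markers, Aif1, Cx3cr1, Tyrobp and Trem2 had no footprint in any library, and the summed level of the list was 11.9 to 45.4 CPM. It was 11.9 to 34.6 CPM with vehicle and 15.7 to 38.5 CPM with IFN-β at 2 h, and 36.9 to 41.6 and 40.2 to 45.4 CPM at 14 h. Summed endothelial markers (6 genes, none at 0 throughout) were 4.48 to 12.0 CPM with vehicle and 7.15 to 25.2 CPM with IFN-β at 2 h, and 9.08 to 10.3 and 11.8 to 14.0 CPM at 14 h. Neuronal markers (6 genes, none at 0 throughout) were 8.95 to 12.3 and 11.4 to 18.5 CPM at 2 h, and 9.91 to 14.0 and 5.69 to 6.38 CPM at 14 h. Ependymal markers (5 genes, with Tmem212 at 0) were 32.1 to 51.3 and 22.7 to 44.6 CPM at 2 h, and 24.2 to 32.0 and 53.2 to 68.2 CPM at 14 h. Oligodendrocyte markers (6 genes, none at 0 throughout) were 5.64 to 29.2 and 5.94 to 24.7 CPM at 2 h, and 1.49 to 2.51 and 0.966 to 2.15 CPM at 14 h. Several of these sums thus differed between the times as well as with IFN-β at 14 h, and their part in the results was not tested. The libraries are bulk, so more cells that translate a gene and more footprints per cell cannot be told apart.

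The promoters of the regulators and the Tgtp genes carry the sequence elements through which interferons are known to act. The interferon-stimulated response element (ISRE) is the classic element of type I interferon targets, and the gamma-activated site (GAS) that of type II interferon targets. The 300 bases around the start of transcription (250 before and 50 after) were read from RefSeq on build GRCm38.p6 for 6 of the 7 genes, all on chromosome 11. In GENCODE M21, Irgm1, Tgtp1, Tgtp2 and Ifi47 lie together between chr11:48861968 and chr11:49096974, and Igtp and Irgm2 between chr11:58199556 and chr11:58222782 (GRCm38). The windows of 300 bases were searched on both strands for GAAANNGAAA as ISRE and TTCNNNGAA as GAS. ISRE was found in 5 of the 6, against 3.43% of 32807 promoters, and GAS in 4, against 8.29%. The same 4, Irgm2, Igtp, Tgtp1 and Tgtp2, held both, against 0.451% of all promoters. Irgm1 held 2 overlapping ISRE matches and no GAS, and neither run of letters was found in the window of Ifi47. A match is a description of the letters and not a measured binding site.

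The windows of 70 bases that hold the matches are printed to show how alike they are, 5′ to 3′ on the strand of the gene, with the matched letters in capitals. The window of Igtp is chr11:58199492-58199561 (+), that of Irgm2 chr11:58214883-58214952 (+), that of Irgm1 chr11:48871405-48871474 (-), that of Tgtp1 chr11:48992284-48992353 (-) and that of Tgtp2 chr11:49064243-49064312 (-).
Igtp: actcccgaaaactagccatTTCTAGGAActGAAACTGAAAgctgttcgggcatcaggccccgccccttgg
Irgm2: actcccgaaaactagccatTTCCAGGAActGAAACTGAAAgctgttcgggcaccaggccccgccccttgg
Tgtp1: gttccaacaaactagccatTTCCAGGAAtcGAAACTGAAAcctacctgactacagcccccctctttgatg
Tgtp2: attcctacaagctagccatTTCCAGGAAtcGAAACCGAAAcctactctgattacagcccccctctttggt
Irgm1: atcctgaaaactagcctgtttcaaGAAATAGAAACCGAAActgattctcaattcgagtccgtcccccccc
In the 4 genes with both elements, GAS came first and ISRE began 11 bases after the first base of GAS. The first base of ISRE lay 34 bases before the annotated start in Igtp, 64 in Irgm2, 77 in Tgtp1 and 70 in Tgtp2. In Irgm1 the matches began 30 and 24 bases before it. Both elements are thus shared by 2 regulators, Igtp and Irgm2, and by 2 effectors, the closely alike Tgtp1 and Tgtp2.

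**Figure D1:**
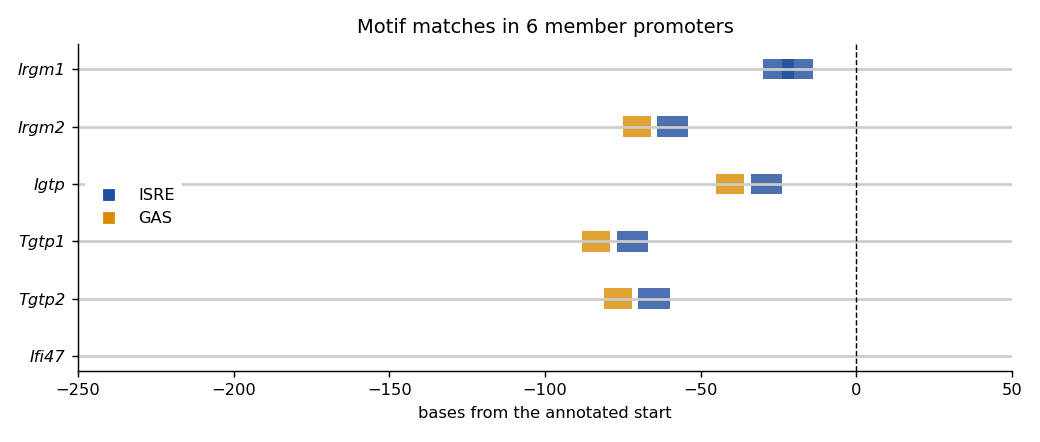
Matches of ISRE (blue) and GAS (orange) in the promoters of 6 IRG genes, with distance from the annotated start in bases on the horizontal axis and 1 gene a line. GAS stands just before ISRE in Irgm2, Igtp, Tgtp1 and Tgtp2, Irgm1 holds overlapping ISRE matches, and Ifi47 holds none. Iigp1 is not shown.

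Some members share coding sequence, which limits how footprints can be assigned. The coding sequences of Tgtp1 and Tgtp2 are both 1245 bases long and differ at 4 positions, an identity of 99.7%. The stretch from coding base 676 to 735 holds 2 of the 4 differences, which stand in capitals.
Tgtp1: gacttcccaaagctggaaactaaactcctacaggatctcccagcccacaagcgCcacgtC
Tgtp2: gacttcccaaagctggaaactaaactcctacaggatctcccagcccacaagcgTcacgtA
Of all runs of 30 bases in Tgtp1, about the length of a footprint, 92.1% also occur in another gene, mostly Tgtp2. In Tgtp2 the share is 94.6%. The counts of the pair are therefore uncertain one by one and are also given as a sum. The share was 16.3% in Irgm2 and 15.6% in Igtp, mostly with each other, 16.7% in Iigp1, with its relatives Gm4951 and Gm5970, 1.59% in Irgm1 and 0% in Ifi47.

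With vehicle, the members were read at low levels in an order led by Irgm1. At 2 h, Irgm1 had 12.4 ± 1.18 CPM (SD, n = 4), Igtp 5.84 ± 1.97, Irgm2 3.80 ± 0.578, Iigp1 1.82 ± 0.298, Ifi47 0.462 ± 0.195, Tgtp2 0.270 ± 0.187 and Tgtp1 0.191 ± 0.0698 CPM. The 4 vehicle libraries of 2 h held 389 footprints of Irgm1 in sum and 6 of Tgtp1. Vehicle cultures thus translated the regulators above the effectors. Per kilobase of coding sequence, Irgm1 lay at 10.1 ± 0.962 CPM, and its libraries did not overlap with those of Igtp (4.60 ± 1.56), the next in order. Igtp and Irgm2 overlapped, and so did Ifi47, Tgtp2 and Tgtp1.

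All 7 members rose at 2 h. The test was edgeR's quasi-likelihood method on 12104 genes, with p-values adjusted by Benjamini-Hochberg. With IFN-β, 7 of 7 members were called higher (adjusted p under 0.05), where 5.25% of all genes tested were. The median log2 fold change of the 7 members was 6.86, and that of all genes was -0.02. A gene needed 10 counts in 4 libraries to be tested. Ifi47, Tgtp1 and Tgtp2 had 1 to 5 counts a vehicle library and passed only through their IFN-β libraries. For them a call of higher was nearly given by the filter, so the share of all genes is no like background. In each member, the lowest IFN-β library lay above the highest vehicle library. This fit did not use the replicate numbers. With the replicate number as a block, 1920 of the 12104 genes were called higher, and so were all 7 members.

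Irgm1, the regulator best known for its part in autophagy and in the control of mycobacteria, had 13.2 CPM at most with vehicle at 2 h. With IFN-β the 4 cultures gave 529, 785, 547 and 507 CPM (replicates 2, 3, 5 and 6). Replicate 3 stood apart above the other 3. This is a rise of 5.58 on the log2 scale (standard error 0.18, adjusted p = 2.50e-07 in edgeR).

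Irgm2 gave 248, 374, 262 and 227 CPM with IFN-β at 2 h, against at most 4.64 CPM with vehicle. Igtp, which localises to the endoplasmic reticulum and lipid droplets, gave 403, 677, 420 and 361 CPM, against at most 8.67 CPM. Both had their highest value in replicate 3. Their log2 fold changes were 6.19 (standard error 0.21) and 6.32 (0.30).

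Among the effectors, Iigp1 gave 206, 437, 243 and 165 CPM with IFN-β at 2 h, against at most 2.07 CPM with vehicle (log2 fold change 7.16, standard error 0.38). Ifi47 gave 69.8, 86.3, 64.1 and 57.1 CPM, against at most 0.662 (log2 fold change 7.22, standard error 0.25). Tgtp1 gave 27.2, 59.1, 25.5 and 20.4 CPM and Tgtp2 32.1, 58.5, 30.4 and 20.6 CPM. The pair summed rose by 7.11 on the log2 scale (standard error 0.48, adjusted p = 1.71e-05 in edgeR). The effectors started lower than the regulators, and even with larger fold changes Ifi47, Tgtp1 and Tgtp2 ended below all 3 regulators.

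At 14 h all 7 were again called higher (edgeR, 12113 genes tested), where 26.2% of all genes were. Irgm2, Iigp1, Ifi47, Tgtp1 and Tgtp2 had at most 6 counts in any vehicle library of 14 h. They and Igtp, with 4 to 21, passed the filter on low counts only through their IFN-β libraries. A call of lower was thus hardly open to them. The median log2 fold change of the members was 10.49, beside 0.00 for all genes. Irgm1 gave 370, 412, 417 and 412 CPM with IFN-β (replicates 1 to 4), against 6.69 to 8.38 CPM with vehicle, and rose by 5.76 on the log2 scale (standard error 0.08, adjusted p = 1.51e-14 in edgeR). Irgm2 gave 213, 230, 244 and 240 CPM and Igtp 493, 543, 596 and 651 CPM. Their vehicle libraries held 14 and 45 footprints in sum, and their log2 fold changes were 9.09 (standard error 0.15) and 8.74 (0.17).

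Iigp1 gave 535, 612, 720 and 672 CPM with IFN-β at 14 h, from 5 footprints in the 4 vehicle libraries together. Ifi47 gave 166, 200, 261 and 219 CPM, Tgtp1 180, 224, 280 and 229 CPM, and Tgtp2 181, 236, 283 and 233 CPM. In all 7 members the lowest of the 4 values was that of replicate 1, the shallowest footprint library. Ifi47 had 2 vehicle footprints and Tgtp1 had 1, so their folds rest on these few reads. The ratio of summed counts, scaled by library size, was 3741 for Ifi47 (95% exact interval of counting error 1035 to 30900) and 8045 for Tgtp1 (1443 to 317807).

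**Figure D2:**
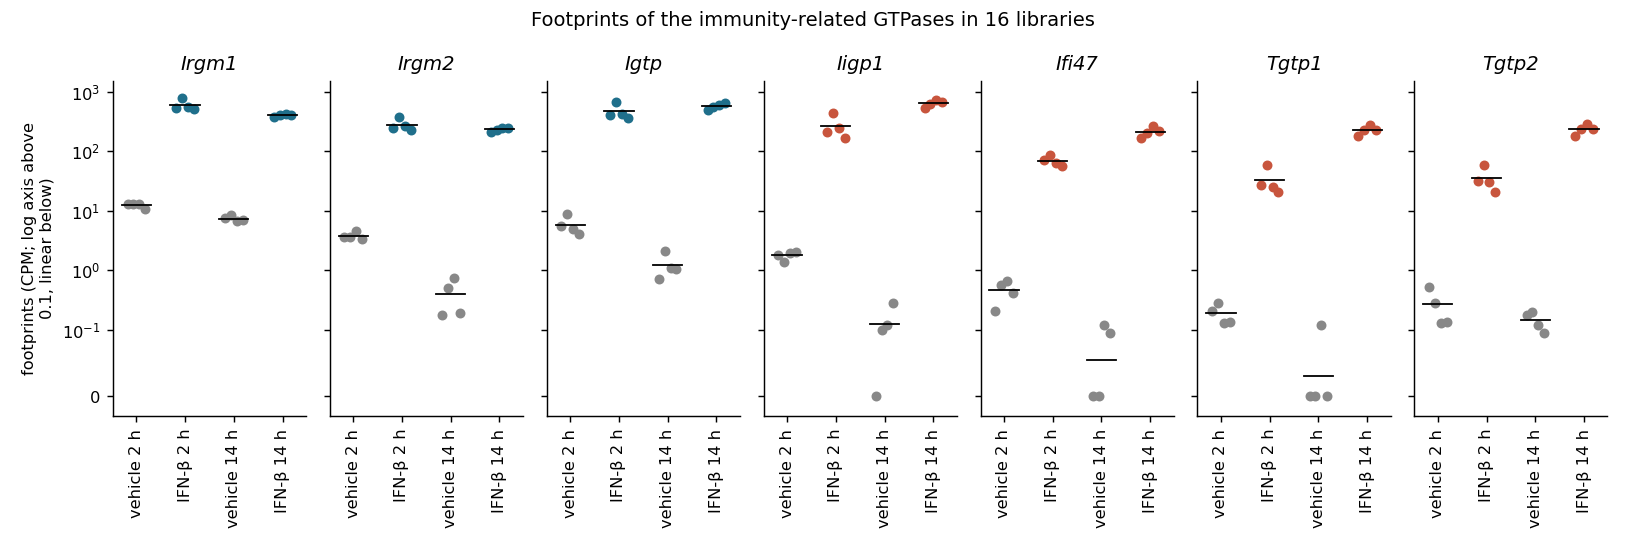
Footprint level (CPM) of each IRG gene in the 16 footprint libraries, with vehicle in grey, IFN-β in blue (regulators) or red (effectors), and the mean of 4 cultures as a line; the vertical axis is logarithmic above 0.1 CPM. The blue points of Irgm1 lie lower at 14 h than at 2 h, and those of Irgm2 and Igtp overlap between the times. The red points lie higher at 14 h, and the vehicle points of every gene are lower at 14 h on average.

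The levels under IFN-β at the 2 times separated the regulators from the effectors. The level at 2 h was 147% of that at 14 h for Irgm1, 120% for Irgm2 and 81.6% for Igtp. It was 41.4% for Iigp1, 32.7% for Ifi47, 15.2% for Tgtp2 and 14.5% for Tgtp1. By their means, Irgm1 and Irgm2 had thus reached or passed their 14 h level by 2 h and Igtp was at 81.6% of it, while the effectors were further below theirs. No time between 2 h and 14 h was sampled, so a higher level between them would not be seen.

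The difference was tested directly, as the IFN-β level at 14 h against 2 h in a fit over all 16 footprint libraries (edgeR, 12508 genes). Of the 7 members, 4 were called higher at 14 h, where 25.4% of all genes were, and 1 was called lower, where 25.0% were. The median log2 difference was 1.28 for the members and 0.00 for all genes. Since so many genes were called between these sets of libraries, the members' calls are given with their size and order. The summed NSC and oligodendrocyte markers were also lower in every 14 h library than in any of 2 h. Under IFN-β, 6 of the 10 NSC markers were called lower at 14 h and 0 higher, where 25.0% and 25.4% of all genes were. Nes (2850 and 3770 CPM) and Hes5 (2.71 and 3.30 CPM) had higher means at 14 h, not called. The part of these markers in the members' differences was not tested.

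Irgm1 fell by 0.55 on the log2 scale between 2 h and 14 h (standard error 0.12, adjusted p = 8.07e-04 in edgeR), and its IFN-β libraries at the 2 times did not overlap. Irgm2 had a difference of -0.26 (standard error 0.13, adjusted p = 0.123 in edgeR) and overlapping libraries. Igtp had one of 0.30 (standard error 0.19, adjusted p = 0.204 in edgeR), also with overlapping libraries. Neither value shows that the levels were the same.

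The calls on Igtp and Irgm2 depend on single libraries of 2 h. Without IFN-β replicate 3 of 2 h, Igtp was called higher at 14 h (0.52, adjusted p = 0.00654 in edgeR), and its 2 h level became 69.2% of the 14 h level. The same call was made with both 2 h footprint libraries of culture 3 left out (0.53, adjusted p = 9.70e-05 in edgeR), a setting added after the data were seen. Without IFN-β replicate 6, Irgm2 was called lower at 14 h (-0.36, adjusted p = 0.0418 in edgeR). Irgm1 was called lower whichever library was left out, by -0.64 to -0.41.

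All 4 effectors rose from 2 h to 14 h. Iigp1, whose product is the best studied of the vacuole-loading GTPases, was higher by 1.28 on the log2 scale (standard error 0.21, adjusted p = 1.24e-04 in edgeR). Ifi47 was higher by 1.62 (standard error 0.14, adjusted p = 1.45e-07 in edgeR). Tgtp2 was higher by 2.74 (0.22) and Tgtp1 by 2.81 (0.24), and the pair summed by 2.77 (standard error 0.24, adjusted p = 9.58e-08 in edgeR). In each of the 4, the lowest library of 14 h lay above the highest of 2 h. On the linear scale the mean levels were 2.41, 3.05, 6.59 and 6.91 times those of 2 h. Without replicate 3 of 2 h, the 2 h level of Iigp1 became 32.3% of its 14 h level, that of Ifi47 30.1%, that of Tgtp2 11.9% and that of Tgtp1 10.7%.

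**Figure D3:**
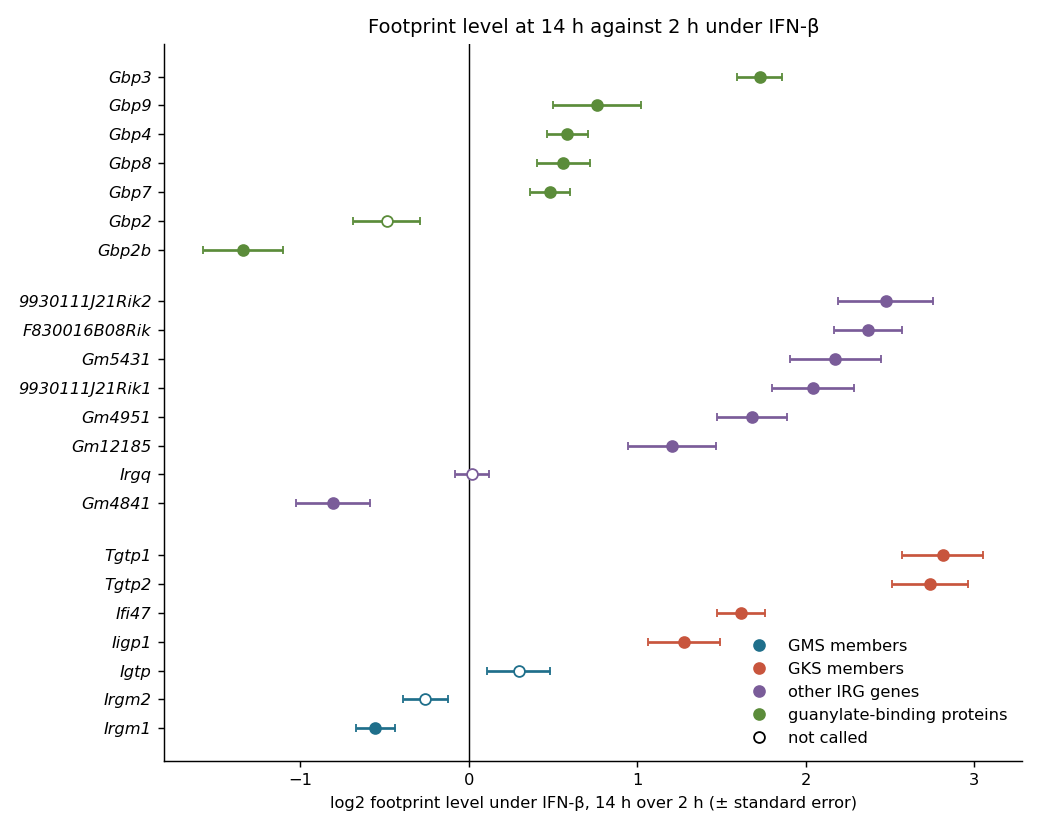
Log2 difference of the footprint level under IFN-β, 14 h over 2 h, with its standard error from a fit over 16 libraries; open points did not pass an adjusted p of 0.05 in edgeR. The regulators (blue) lie between -0.55 and 0.30 and the effectors (red) between 1.28 and 2.81, with other IRG genes in purple and guanylate-binding proteins in green.

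The make-up of the IRG footprints moved with this. Effectors held 22.5 ± 2.67% (SD, n = 4) of the members' footprints with IFN-β at 2 h, between 19.4% and 25.9%, and 51.9 ± 2.32% at 14 h, between 49.7% and 55.1%. The groups did not overlap. This share is taken within a library and does not depend on how libraries are scaled. With vehicle it was 11.2 ± 1.74% at 2 h and 3.93 ± 1.82% at 14 h. The 7 genes together took 1736 ± 504 CPM with IFN-β at 2 h and 2513 ± 286 CPM at 14 h, against 24.8 ± 2.97 and 9.39 ± 1.27 CPM with vehicle.

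The order of the levels changed as well. Per kilobase of coding sequence, the order with IFN-β at 2 h was Irgm1 (482 ± 106 CPM), Igtp (367 ± 113), Irgm2 (228 ± 54.0), Iigp1 (212 ± 97.2), Ifi47 (55.0 ± 9.87), Tgtp2 (28.4 ± 13.0) and Tgtp1 (26.5 ± 14.1). Only Iigp1 and Ifi47 were neighbours whose libraries did not overlap. At 14 h it was Iigp1 (512 ± 64.2 CPM), Igtp (450 ± 53.6), Irgm1 (328 ± 17.7), Irgm2 (190 ± 11.3), Tgtp2 (187 ± 33.4), Tgtp1 (183 ± 32.7) and Ifi47 (168 ± 31.2). Iigp1 and Igtp overlapped, Igtp and Irgm1 did not, nor did Irgm1 and Irgm2, and the last 4 overlapped from one to the next. By its mean Iigp1 moved from the fourth place to the first, where it was not separated from Igtp, and the gap of Ifi47, Tgtp1 and Tgtp2 to Irgm2 closed.

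The vehicle level also differed between the sets of libraries. All 7 members were lower with vehicle at 14 h than at 2 h, 5 of them called (edgeR), where 16.9% of all genes were called lower. Irgm2 fell by 3.16 on the log2 scale (standard error 0.36), from 119 to 14 footprints in 4 libraries, Iigp1 by 3.49 (0.79), Ifi47 by 2.62 (0.83), Igtp by 2.14 (0.36) and Irgm1 by 0.74 (0.15). The call on Ifi47 was lost without vehicle replicate 3 or 5 of 2 h or 1 or 2 of 14 h (-2.53, -2.40, -2.44 and -2.23, with adjusted p = 0.0884, 0.0606, 0.0509 and 0.0661 in edgeR), and without culture 3 (-2.52, adjusted p = 0.0764). Tgtp1 and Tgtp2 had values of -2.17 and -0.89 and were not called. Vehicle levels at 2 h were 0.577% to 2.09% of the IFN-β level.

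For this reason the fold over vehicle and the level under IFN-β give different orders. In the interaction of time and treatment (edgeR, 12508 genes), 5 of 7 members had a larger response at 14 h than at 2 h, where 15.4% of all genes did. Irgm2, whose IFN-β level had a difference of -0.26, had an interaction of 2.90 (standard error 0.39, adjusted p = 4.68e-05 in edgeR). Igtp had one of 2.44 (0.41), Ifi47 of 4.24 (0.84) and Iigp1 of 4.77 (0.79). Beside these interactions, the vehicle level of Irgm2 fell by 3.16 and that of Igtp fell by 2.14 between the times.

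Irgm1 had an interaction of 0.19 (standard error 0.19, adjusted p = 0.480 in edgeR), and one of 0.36 (adjusted p = 0.0333 in edgeR) without IFN-β replicate 3 of 2 h or 0.33 (adjusted p = 0.0467) without culture 3. From 2 h to 14 h its log2 level differed by -0.55 under IFN-β and by -0.74 with vehicle, so Irgm1 was lower at 14 h in both treatments. The values of the Tgtp genes rest on 1 to 9 vehicle footprints a group. Tgtp2 had 3.63 (standard error 1.25, adjusted p = 0.0375 in edgeR), and this call was lost when any of 5 libraries was left out: vehicle replicate 2 or 3 of 2 h (3.03 and 3.65), IFN-β replicate 2 of 2 h (3.59), or vehicle replicate 3 or 4 of 14 h (3.57 and 3.44). Tgtp1 had 4.98 (standard error 1.86, adjusted p = 0.0515 in edgeR) and was called with the replicate number as a block within each time (5.01, adjusted p = 1.24e-04) or across both (5.03, adjusted p = 0.00398), in DESeq2 (5.19, adjusted p = 2.75e-04), with no filter (4.98, adjusted p = 0.0493), without culture 3 (5.21, adjusted p = 0.0141), and without IFN-β replicate 3 (5.40) or 6 (4.82) of 2 h or 1 of 14 h (5.09). For the pair summed it was 4.13 (standard error 1.14, adjusted p = 0.0124 in edgeR).

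Set among induced genes, the regulators lay between the quartiles and the effectors above the upper one. Of all genes, 337 were called higher with IFN-β at both times. Between 2 h and 14 h their level under IFN-β had a median log2 difference of 0.07, with quartiles at -0.59 and 1.21. Of these, 141 (41.8%) were called higher at 14 h and 119 (35.3%) lower. Irgm1 (-0.55) lay just above the lower quartile, with Irgm2 and Igtp further in. Iigp1 (1.28) lay just above the upper quartile, and Ifi47, Tgtp1 and Tgtp2 further out.

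**Figure D4:**
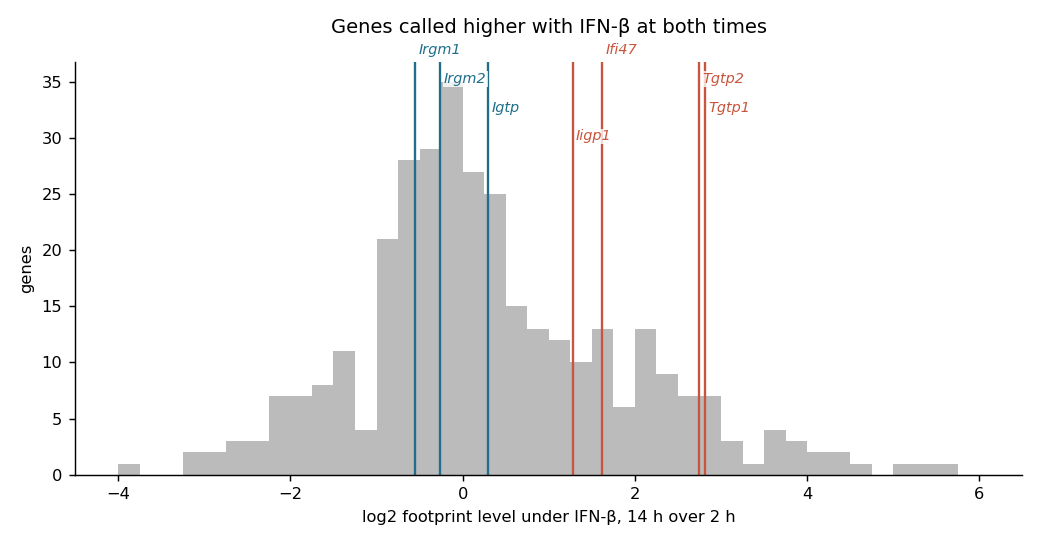
Log2 difference of the footprint level under IFN-β, 14 h over 2 h, for the 337 genes called higher at both times (grey bars, number of genes), with the IRG members as vertical lines. The regulators (blue) stand between -0.55 and 0.30, within the quartiles of -0.59 and 1.21, and the effectors (red) between 1.28 and 2.81, above the upper one.

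Other genes of the IRG family are mostly little described and carry clone names. Of 9 in the footprint table, 8 were tested between the times. Under IFN-β, 6 were called higher at 14 h than at 2 h and 1 was called lower, where 25.4% and 25.0% of all genes were. Of the 6, Gm5431 and 9930111J21Rik2 did not pass the filter on low counts at 2 h. They entered the test between the times only with their IFN-β libraries of 14 h, so their calls were partly given by the filter. The median log2 difference of the 8 was 1.86. Gm4951, a close relative of Iigp1, had 75.0 ± 30.8 CPM at 2 h and 239 ± 19.7 CPM at 14 h (log2 difference 1.68, standard error 0.21). F830016B08Rik had 9.80 and 50.7 CPM, Gm12185 7.77 and 17.5, Gm5431 2.08 and 9.13, 9930111J21Rik2 1.60 and 8.59, and 9930111J21Rik1 1.83 and 7.44 CPM. Gm4841 went the other way, with 34.1 ± 10.5 CPM at 2 h and 19.1 ± 3.82 at 14 h (log2 difference -0.81, standard error 0.22). Gm12185 and 9930111J21Rik1 share runs of 30 bases with Tgtp1 and Tgtp2, and Gm12185 overlaps Tgtp1 on the same strand. Whether their low counts include footprints of the Tgtp pair was not tested. Irgq, an IRG-like gene not known as an interferon target, had 33.0 and 33.5 CPM, and its log2 fold change over vehicle was -0.05 at 2 h (not called) and 0.33 at 14 h (called higher). Irgc1 was at or near 0.

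The guanylate-binding proteins (GBPs), the other family of GTPases that attack these vacuoles, showed both patterns. All 7 tested were called higher with IFN-β at 2 h and at 14 h, where 5.25% and 26.2% of all genes were. Between the times, 5 were called higher under IFN-β at 14 h and 1 lower, where 25.4% and 25.0% of all genes were. Their median log2 difference was 0.56. Gbp2, the most abundant, had 1653 ± 569 CPM at 2 h and 1179 ± 165 at 14 h (log2 difference -0.49, adjusted p = 0.0525 in edgeR). Gbp3 had 191 ± 14.2 and 632 ± 15.5 CPM (log2 difference 1.73), and Gbp7 273 ± 42.9 and 381 ± 24.4 (0.48). Of the other interferon-induced GTPases, the antiviral dynamin-like Mx1 went from 19.4 to 49.5 CPM and was called, while Mx2, with 83.5 and 72.0 CPM, was not. Gvin1 had no footprint at 2 h and 7.37 CPM at 14 h.

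Loading of IRGs is known to depend on ATG8 proteins and the enzymes that conjugate them to lipid. None of 11 such genes was called with IFN-β at 2 h (edgeR), and 3 were called higher at 14 h, where the list's median was 0.02 on the log2 scale. With 26.2% of all genes called higher at 14 h, 3 of 11 is near the background. Gabarap, the most abundant, had a log2 fold change of 0.26 at 14 h, Gabarapl1 one of 0.65, both called, and Gabarapl2 one of -0.13, not called. Among 14 genes of interferon signalling, 9 were called higher at 2 h, and 11 of 13 tested were at 14 h, where 5.25% and 26.2% of all genes were. Between the times, 5 were called higher under IFN-β and 6 lower, where 25.4% and 25.0% of all genes were. The receptor kinase Jak1 went from 374 to 194 CPM (log2 difference -0.95), and Usp18, which damps the receptor, from 204 to 639 CPM (1.65).

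The genes whose footprints followed the mean profile of the 7 members most closely over the 16 libraries were Parp9, Ifit2, Isg15, Usp18 and Ddx58, with a Pearson correlation of log2(CPM + 0.5) between 0.997 and 0.998, among the 10314 genes that averaged 50 counts or more. These correlations are a description, since the points fall into treated and vehicle libraries.

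Total RNA of the same lysates held few reads of these genes. Igtp and Ifi47 had 0 counts in all 16 total RNA libraries, while their footprints reached 6066 and 2042 in one library. In the GENCODE M21 annotation, Igtp overlaps Irgm2 on the same strand and Ifi47 lies within Olfr56. Of 108 genes that lie within another gene of the same strand and average 50 footprints or more, 105 (97.2%) had no total RNA count in any library, against 57 (0.561%) of 10154 others. Ifi47 is one of the former, while Igtp overlaps Irgm2 without lying wholly within it. Given their footprints, the zeros of both genes in total RNA are not read as absence of the RNA. Olfr56, which also spans Tgtp1 and Tgtp2 on the opposite strand, had no footprint in any library, and had 303 to 904 total RNA counts with vehicle at 2 h and 596 to 4319 with IFN-β, and 54 to 299 and 913 to 2664 at 14 h. From which gene these reads came was not tested.

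Only Irgm1 and Irgm2 passed the filter on low counts in total RNA. Irgm2 overlaps Igtp on the same strand, and the part of this overlap in the total RNA counts of Irgm2 was not tested. At 2 h Irgm2 was called higher (log2 fold change 3.96, standard error 0.36, adjusted p = 1.34e-04 in edgeR), where 0.722% of all genes were. Its 4 vehicle libraries had 0.475 to 1.55 CPM and its IFN-β libraries 13.9 to 22.7. Irgm1 had 1.17 (standard error 0.48, adjusted p = 0.596 in edgeR), with overlapping libraries. At 14 h both were called higher, where 3.47% of all genes were: Irgm2 by 2.52 (standard error 0.36, adjusted p = 2.31e-04 in edgeR) and Irgm1 by 1.44 (0.29, adjusted p = 0.00538).

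Iigp1 had 4 total RNA counts with vehicle and 67 with IFN-β at 2 h, a ratio of 15.1 (95% exact interval of counting error 5.62 to 56.9), and 5 and 19 at 14 h, a ratio of 2.78 (1.00 to 9.53). Tgtp1 had 0 with vehicle at both times and 10 and 23 with IFN-β, at least 3.00-fold and 5.61-fold higher, taking 3 counts as the floor of a whole vehicle group. Tgtp2 had 0 with vehicle and 2 and 5 with IFN-β. In GENCODE M21, Tgtp1 overlaps Gm12185 on the same strand, and the part of this overlap in its low total RNA counts was not tested. With counts this low, total RNA gives no order of the effectors over time.

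**Figure D5:**
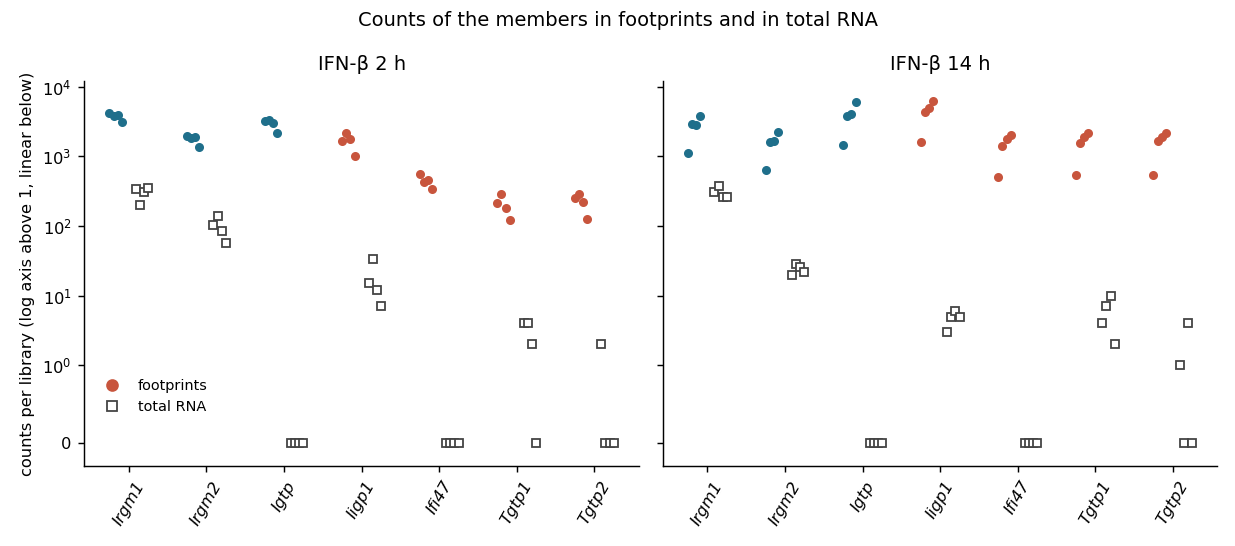
Counts per library of each IRG gene under IFN-β at 2 h and 14 h, as footprints (filled circles, blue for regulators and red for effectors) and total RNA (open squares); the vertical axis is logarithmic above 1 count. Igtp and Ifi47 stand at 0 in total RNA in every library, and each member has fewer total RNA counts than footprints.

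The authors removed duplicate reads, which can limit the count of a short, densely covered gene. Whether it did so for the members was not tested. The densest member, Iigp1, reached 5.05 footprints per coding base, in IFN-β replicate 4 of 14 h. Among 20980 genes with a coding length of at least 300 bases, 318 were denser than every member, up to 112 footprints per base.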

How the data were processed

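Gene counts of 16 footprint and 16 total RNA libraries were analysed. Per the labels and methods, the authors trimmed reads with Trim Galore 0.4.4, mapped them with Bowtie 0.12.7 to the mm10 transcriptome, removed duplicates and counted in mode Union; the deposited values are raw counts, and the strand setting is not given in the sources used here. edgeR 4.0.16 in R 4.3.3 (quasi-likelihood test, TMM, two-sided, Benjamini-Hochberg) was fitted per time and over all 16 footprint libraries, on genes that reached 10 counts in 4 or more libraries (3 where a replicate was left out). A gene near 0 with vehicle passes this filter only through its IFN-β libraries. DESeq2 1.42.0, total counts alone, other filters, the replicate block, the Tgtp pair summed and leaving out each library were alternatives. Python 3.11.15, pandas 2.3.3, scipy 1.17.1 and matplotlib 3.10.9 served for the rest.

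Members and lists were chosen with earlier results of these data known. All 7 members are named; of each list, the 3 with the highest mean footprint count, and every tested gene of the other IRG family; 1 gene under this rule is not reported here. Irgc1 and Olfr56 were added after their values were seen. Total RNA CPM were scaled within each time. Intervals and floors cover counting error only. Same-numbered footprint libraries deviated together (correlation of deviations from group means 0.470 to 0.863 at 2 h and 0.259 to 0.524 at 14 h). The main fits, and the shares of all genes set beside the members, do not use this pairing. It was tried as the replicate block. Same-numbered total RNA libraries did not deviate together throughout (-0.658 to 0.530), although they came from the same lysates, and the correlation does not settle whether they pair.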

Additional observations from a re-analysis of the deposited data

Results flagged for a closer look

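With IFN-β, 5 members had a response over vehicle that was larger at 14 h than at 2 h in a test of the difference itself, where 15.4% of all genes did. On the log2 scale the difference was 4.77 for Iigp1, 4.24 for Ifi47, 3.63 for Tgtp2, 2.90 for Irgm2 and 2.44 for Igtp. The IFN-β levels of Irgm2 and Igtp were not called different between the times, while their vehicle levels fell by 3.16 and 2.14. The call on Tgtp2 was lost when any of 5 libraries was left out.

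In 28 groups of 4 libraries of a member, a sample was looked for that stands far from the other 3, which chance gives in about 1 in 20 groups. In Irgm1 footprints these were vehicle replicate 6 of 2 h (10.6 CPM), IFN-β replicate 3 of 2 h (785 CPM) and IFN-β replicate 1 of 14 h (370 CPM). In total RNA they were Irgm1 in vehicle replicate 2 of 14 h (17.6 CPM) and Iigp1 in IFN-β replicate 3 of 2 h (5.42 CPM).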

How the results depend on the processing

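All 7 members stayed called higher in footprints at 2 h and at 14 h in every alternative and whichever library was left out (7 to 7 called at both times); with the Tgtp pair summed, all 6 features were. With a library left out, 4 to 7 members were called in the difference of response, 5 to 6 in the IFN-β level between times, 4 to 5 in the vehicle level, 1 to 2 in total RNA at 2 h and 2 to 2 at 14 h. In total RNA at 2 h, 2 members were called with no filter, and also without IFN-β replicate 6. Irgm1 was not called in either, so the second member was 1 that the main filter had left out. At 14 h 1 member was called with a mean of at least 50 counts, where Irgm2 was no longer tested. Over single members and comparisons, 715 of 738 alternative values kept direction and call, 13 gained the call, 10 lost it and none changed sign; all changes in footprints stand in the report. With the replicate block, 3538 genes in place of 878 were called at 2 h and 6944 in place of 3867 in the difference of response; it changed no member's call except Tgtp1 in the latter (5.01). A block within each time cannot be fitted to the levels between times. With equal numbers at both times taken as 1 culture (a replicate block added after the data were seen; same-numbered libraries across times had correlated deviations of -0.0788 to 0.110), no member's call on the levels changed, and in the difference of response Tgtp1 alone gained the call. Without culture 3, 1806 genes were called at 2 h. Total RNA calls at 2 h went from 93 to 169 (DESeq2), 174 (no filter), 44 (mean of at least 50) or 59 at the lowest with a library left out, and at 14 h from 474 to 269 (total counts alone), 247 (mean of at least 50) or 295 at the lowest. The causes were not tested. Vehicle counts of 1 to 14 limit the folds of the effectors and of Irgm2 at 14 h.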
